A study of Sus scrofa with 6 samples.

Results

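The regions described here were the differentially methylated regions (DMRs) of pig skeletal muscle with very deep coverage in both muscles compared. A DMR was taken where the mean depth of the 3 longissimus dorsi libraries and the mean depth of the 3 psoas major libraries were both 60 or more, each DMR was entered once, and rows of the gene PPAP2A were left out, which removed 3 DMRs that also reached the minimum. This gave 1264 of the 15633 listed DMRs (8.09%), here called the deep DMRs, spanning 221.88 kb and 10097 CpGs. Of the remaining listed DMRs, 429 reached a depth of 60 in longissimus dorsi only, 2084 in psoas major only and 11853 in neither muscle. The depths of both muscles chose the deep DMRs, and the list itself had been selected by the authors for a depth difference between the muscles. The depth, its direction and its size are therefore given as a description, with no test.

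The study compared the longissimus dorsi muscle (LDM) of the back, a pale muscle of mainly fast glycolytic fibers, with the psoas major muscle (PMM) of the loin, a red muscle of more oxidative fibers. Both came from female Landrace pigs of 210 days that had received no treatment, with 3 libraries per muscle from the same 3 pigs, and no label tied a library number to a pig. The assay was methylated DNA immunoprecipitation sequencing (MeDIP-seq), in which an antibody to methylated cytosine pulls down DNA fragments that are then sequenced. DNA came from whole muscle, so a higher share of one kind of nucleus and more methylation per nucleus cannot be told apart, and a methylation depth gives no marker by which the muscle of a library could be checked.

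Cytosine methylation in mammals sits almost entirely on CpG dinucleotides, and most CpGs outside CpG islands carry it. Methylated promoters of CpG-rich genes are usually silent, whereas methylation over exons and introns is common in genes that are transcribed. The number of fragments an anti-methylcytosine antibody recovers from a region grows with the number of methylated CpGs in the fragment and with the number of copies of that sequence in the genome. The deepest regions of a MeDIP library are thus those that are densely methylated, repeated, or both, and the depth of a region is no percentage of methylation.

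Depth in PMM was above that in LDM at nearly all of the deep DMRs. The median depth of the 1264 deep DMRs was 77.9, 77.5 and 75.4 in LDM libraries 1 to 3 and 113, 118 and 119 in PMM libraries 1 to 3, which gave 76.9 ± 1.36 in LDM and 116.9 ± 3.49 in PMM (mean ± SD of the library medians, n = 3). Over all listed DMRs the library medians were 27.1 ± 0.897 in LDM and 24.4 ± 0.910 in PMM, but the upper quartiles were 41.4 to 43.7 in LDM and 51.4 to 55.0 in PMM, so that PMM was deeper in the upper range of the list, from which the deep DMRs were chosen. By mean depth, PMM was the higher muscle at 1246 deep DMRs and the lower one at 18 (98.6% higher), against 8751 higher and 6882 lower of all listed DMRs (56% higher).

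**Figure D1:**
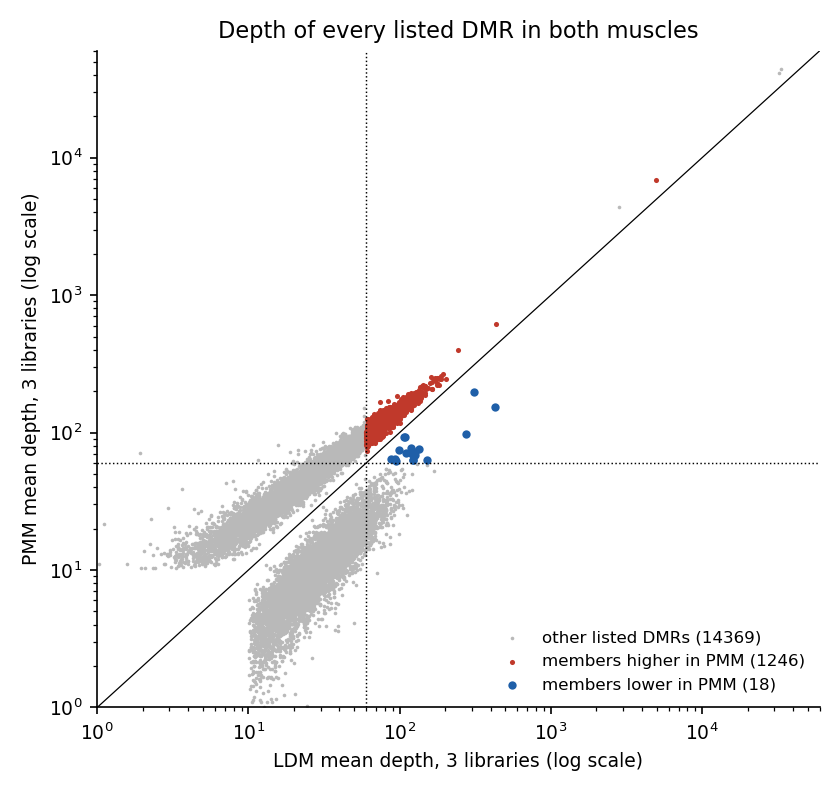
Mean depth of each listed DMR over the 3 LDM libraries (x axis) and the 3 PMM libraries (y axis), both on log scales, with dotted lines at 60 and a solid line of equal depth. The 1246 deep DMRs higher in PMM (red) and the 18 lower in PMM (blue) lie in the upper right field, and the 14369 other DMRs (grey) include the 3 left out by gene name; on the deposited scale few of the DMRs below the line of equal depth reach this field.

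Every deep DMR had libraries that did not overlap between the muscles, as had all listed DMRs (100%). In the limma fit over the whole list at a Benjamini-Hochberg adjusted p under 0.05, 1246 deep DMRs were called higher and 18 lower, where 55.9% of all listed DMRs were called higher and 44% lower (99.9% in either direction). Nothing about the deep DMRs can be read from being called, since the list holds regions selected for this contrast. The direction split depended on the scaling. After quantile normalization, which forces the same depth distribution on all 6 libraries, 151 of the 1264 deep DMRs were called higher and 43 lower. Of all 15633 listed DMRs, 6876 (44%) were called higher and 6265 (40.1%) lower. Of the called ones, 77.8% of the deep DMRs and 52.3% of the listed DMRs were higher. Most deep DMRs thus lost their call, whereas most listed DMRs were still called. After subtraction of the trend with CpG density 649 deep DMRs were called higher and 144 lower, where 24.3% of all listed DMRs were called higher and 31.8% lower. Of the called ones, 81.8% of the deep DMRs and 43.2% of the listed DMRs were then higher. These scalings moved the median log2 difference of all listed DMRs by -0.46 and -0.66, and the median of the deep DMRs stood 0.02 above that of all listed DMRs on the deposited scale, -0.04 from it after quantile normalization and 0.40 above it after subtraction of the density trend. The list holds both directions, so its overall median measures no common shift. Quantile normalization took the median of the listed DMRs higher in PMM from 0.85 to 0.81, and of the lower ones from -1.38 to -1.09. It took that of the deep DMRs higher in PMM from 0.58 to 0.07. After subtraction of the density trend, the listed and the deep DMRs higher in PMM both had a median of 0.31. Subtraction of the density trend lowered sparse regions and raised dense ones, so a sign kept or changed under it depends on the CpG density of the region. Directions below are on the deposited scale unless another is named.

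The rule acted unequally on the directions. Listed DMRs lower in PMM had a median fold of 2.61, so one with an LDM depth just over 60 usually fell under 60 in PMM. Of the 1693 DMRs with an LDM mean of 60 or more, 1246 were higher and 447 lower in PMM (73.6% higher), and 429 of the lower ones did not reach 60 in PMM. Of the 3348 with a PMM mean of 60 or more, 99.5% were higher in PMM. A choice by the mean over the 6 libraries, added after the data had been seen, took 2330 DMRs at 60 or more, of which 96.5% were higher in PMM, and 554 at 100 or more, of which 98.6% were higher.

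The difference at the deep DMRs was small and narrow in range. Their median log2 difference, the fitted PMM minus LDM difference of log2(depth + 1), was 0.58 (interquartile range 0.49 to 0.68), a fold of 1.49 (1.41 to 1.60), with a median standard error of 0.09. All listed DMRs higher in PMM had a median log2 difference of 0.85. A fold over 2 was reached by 8 of the 1264 deep DMRs (5 higher and 3 lower in PMM) and by 8419 of all 15633. The median log2 difference was 0.53 for the 142 deep DMRs with a mean depth over the 6 libraries of 60 to 80, 0.63 for the 571 of 80 to 100, 0.56 for the 480 of 100 to 150 and 0.49 for the 71 of 150 or more. The rule bounds the folds that the lowest of these bins can hold, and no trend with depth is read from them.

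**Figure D2:**
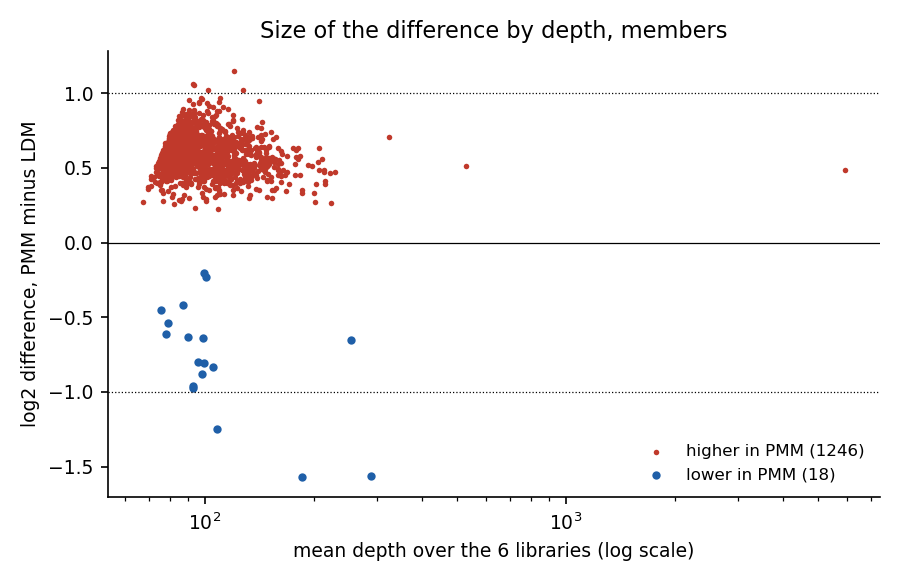
Log2 difference between the muscles (PMM minus LDM, y axis) against the mean depth over the 6 libraries (x axis, log scale) for each deep DMR, with dotted lines at 2-fold. On the deposited scale the 1246 regions higher in PMM (red) lie in a band around 0.58, and the 18 lower regions (blue) spread from -0.20 to -1.57.

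The median coefficient of variation over the 3 libraries of a muscle was 7.41% in LDM and 6.05% in PMM, against 11.6% and 11.8% over all listed DMRs. Part of the gap in PMM went with direction, since listed DMRs higher in PMM had a median of 7.85% there and lower ones 28.4%. In 998 of the 1264 deep DMRs each of the 6 libraries was at 60 or more. The 18 deep DMRs lower in PMM had a median coefficient of variation of 13.4% in PMM.

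**Figure D3:**
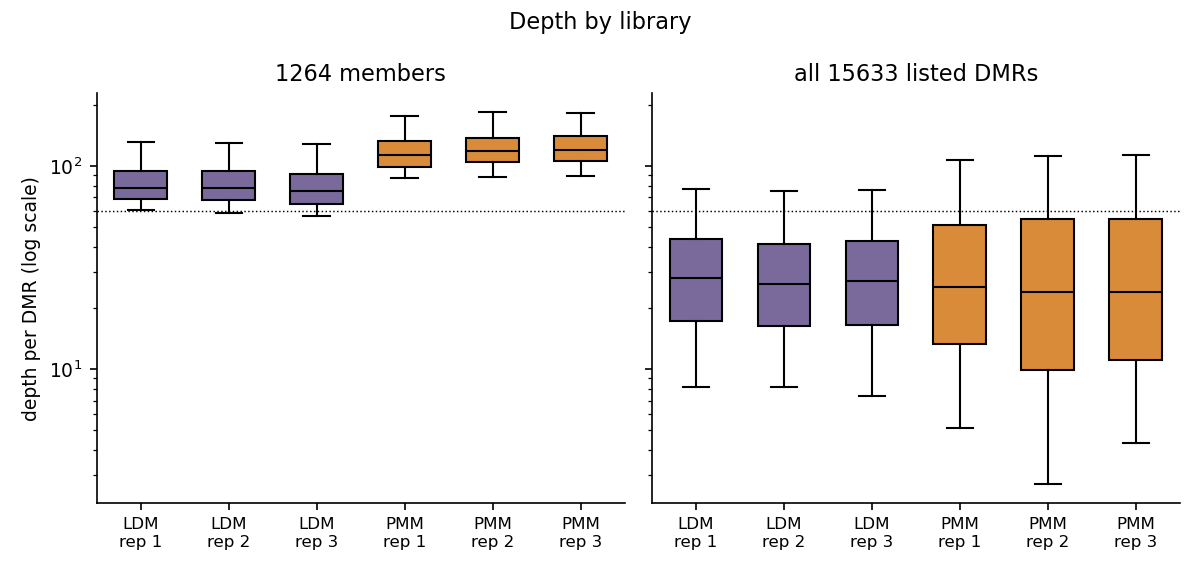
Depth per DMR in each of the 6 libraries (log scale) for the 1264 deep DMRs (left) and all 15633 listed DMRs (right), where boxes show the quartiles, the line the median and whiskers the 5th and 95th percentiles, with a dotted line at 60. At the deep DMRs the 3 PMM medians (113 to 119) lie above the 3 LDM medians (75.4 to 77.9) on the deposited scale, whereas over the list the medians of the muscles are close.

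Just inside the minimum, an intergenic DMR at chr7:34075783-34076181 had a mean of 60.016 in LDM and 82.0 in PMM, and an intronic DMR of HERC3 had 60.0192 and 100.2. Just outside it, a DMR of ULK4 had 59.9488 in LDM and 111.9 in PMM. These values are next to each other, so the minimum of 60 marks no gap in the data. All coordinates are those of the Sscrofa10.2 build, as deposited.

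The deepest region lay between genes at chr6:910570-910685, a stretch of 116 bp with 5 CpGs. Its depth was 4926, 5411 and 4471 in LDM libraries 1 to 3 and 6700, 6832 and 7161 in PMM libraries 1 to 3, a log2 difference of 0.49 ± 0.06 (SE). All PMM libraries were above all LDM libraries, as at every deep DMR higher in PMM. The region had the same rank in each library and so a log2 difference of 0 after quantile normalization. After subtraction of the density trend its log2 difference was -0.045. The next, an intergenic region at chr15:155206675-155206916, had depths of 406, 477 and 424 in LDM and 586, 628 and 646 in PMM. Its depth was far below that of the chromosome 6 region, while its log2 difference was 0.51 ± 0.07, which turned to -0.42 after subtraction of the density trend. Mean depth over the 6 libraries reached 200 in 18 deep DMRs.

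Several deep DMRs lay at genes for small structural RNAs, which occur in mammalian genomes in many near-identical copies. Reads of such copies cannot be assigned with certainty. The regions named here were annotated as promoters, and their copy number was not looked up, so their values may be uncertain as to locus. The promoter of a 5S_rRNA gene (5S ribosomal RNA) at chr5:106694237-106694361 was the deepest region with a gene name, with 183, 199 and 194 in LDM and 286, 242 and 274 in PMM, a log2 difference of 0.47 ± 0.07. The promoter of a U6 gene, the RNA of the catalytic core of the spliceosome, had 116, 117 and 96.7 in LDM and 171, 179 and 179 in PMM (0.68 ± 0.08). This region was also annotated to HTR3B. A promoter region of RNU1-108P, a U1 small nuclear RNA pseudogene, had 70.3, 75.1 and 67.7 in LDM and 110, 142 and 145 in PMM, with the largest log2 difference of the deep promoter DMRs, 0.88 ± 0.11. RNA5SP501, a 5S pseudogene, had the smallest, with 93.5, 90.0 and 95.3 in LDM and 121, 118 and 121 in PMM (0.36 ± 0.07), and this one turned to -0.17 after quantile normalization and -0.36 after subtraction of the density trend.

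Among protein-coding genes, the deepest region lay in an intron of COL4A2, which encodes a chain of the type IV collagen of basement membranes, at chr11:84626377-84626485. Its depth was 203, 201 and 206 in LDM and 235, 241 and 257 in PMM, one of the smallest gains of the set (0.26 ± 0.06, and -0.06 after quantile normalization). An exon of MYO1D, an unconventional class I myosin, had 202, 178 and 178 in LDM and 247, 247 and 239 in PMM (0.39 ± 0.07). An intron of DNHD1, a gene of the dynein heavy chain family, had 206, 177 and 171 in LDM and 235, 259 and 243 in PMM (0.41 ± 0.08). In none of these 3 did the muscles overlap, as in no listed DMR, and the folds were 1.20, 1.31 and 1.33.

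Of the next 6 of the deepest regions with a gene name, 5 lay in exons. The first exon of OR52E2, an olfactory receptor, had 171, 186 and 155 in LDM and 249.7, 233 and 271 in PMM (0.56 ± 0.08). An internal exon of SEC31A, a coat protein of vesicles leaving the endoplasmic reticulum, had 159.7, 179.9 and 163 in LDM and 257, 229.9 and 245 in PMM (0.54 ± 0.07). An internal exon of PAPSS2, which makes the sulfate donor used to modify matrix proteoglycans, had 186, 181 and 164 in LDM and 228, 222 and 218 in PMM (0.33 ± 0.06, and -0.08 after quantile normalization). TDRD12, a tudor-domain gene of the germline piRNA pathway, and LMTK2, a membrane-anchored kinase, carried exonic regions with log2 differences of 0.51 and 0.49. The TDRD12 region was also annotated to ANKRD27 and the LMTK2 region to BAIAP2L1. AFF2, the X-linked gene of the FRAXE fragile site in human, had an intronic region with depths of 187, 186 and 175 in LDM against 221, 225 and 216 in PMM, a log2 difference of 0.27 ± 0.06 and -0.14 after quantile normalization.

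The largest gain in PMM was in an intron of E2F7, an E2F-family repressor of cell-cycle genes, at chr5:109275976-109276020. Its depth was 74.4, 87.5 and 61.7 in LDM and 139.6, 164 and 195 in PMM, a fold of 2.22 (log2 1.15 ± 0.15). The last exon of TMEM183A, a predicted membrane protein, had 73.1, 78.7 and 51.4 in LDM and 128, 141 and 139 in PMM, a fold of 2.03. In both genes LDM library 3 was the lowest. The other large gains with a gene name were 1.94-fold in an exon of ANKS1B (a synaptic scaffold protein), 1.92-fold in an intron of STX18 (a SNARE of the endoplasmic reticulum), 1.91-fold in the last exon of IBSP (bone sialoprotein), 1.88-fold in an intron of CDK8 (the kinase of the Mediator complex), 1.85-fold in an intron of LMO2 (a transcriptional cofactor of blood formation) and 1.84-fold in an exon of GALC (galactosylceramidase). These 8 genes kept a higher depth in PMM under every scaling tried.

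The 18 deep DMRs lower in PMM were shorter and denser in CpGs than those higher in PMM. Their median length was 76 bp and their median CpG density 7.32 per 100 bp, against 149 bp and 4.86 per 100 bp for the 1246 higher ones. The whole list showed the same contrast, with 99 bp and 7.63 per 100 bp for lower DMRs against 165 bp and 4 per 100 bp for higher ones. The library medians of the 18 were 119.9 ± 5.44 in LDM and 71.6 ± 4.52 in PMM (mean ± SD, n = 3), against 76.5 ± 1.29 and 117.3 ± 3.64 for the higher deep DMRs. All 18 stayed lower after quantile normalization (18 called), as did 6864 of the 6882 listed DMRs lower in PMM (6239 called). After subtraction of the density trend, 8 of the 18 were lower and 10 higher, against 6379 lower and 503 higher of the 6882.

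**Figure D4:**
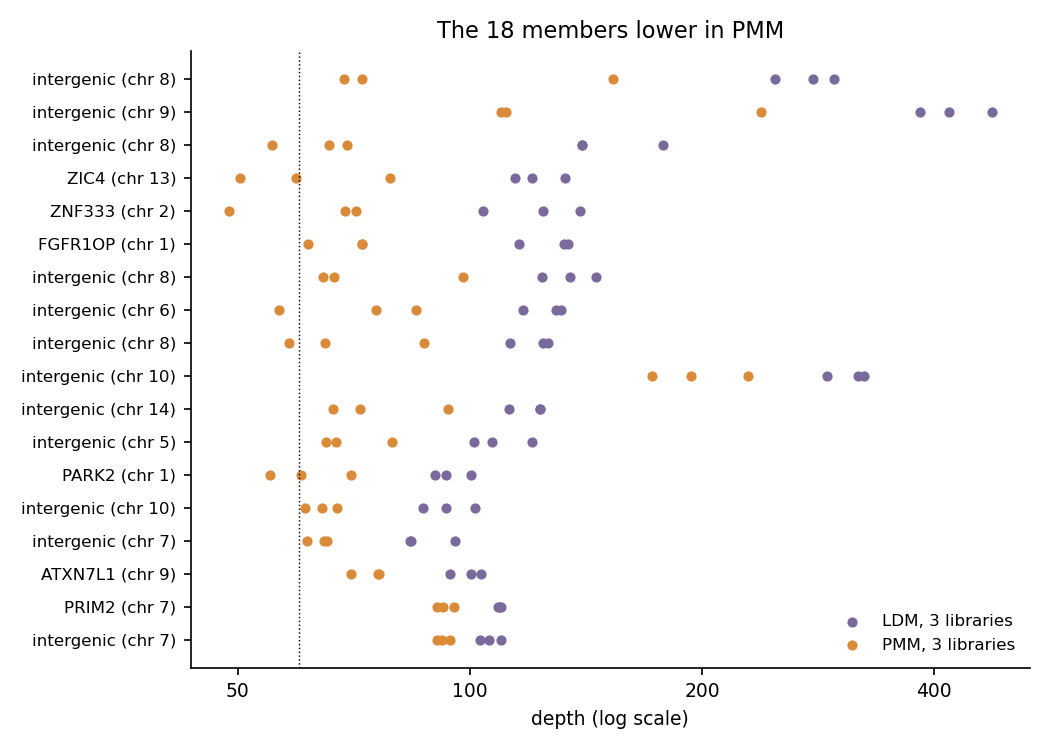
Depth in each LDM library (purple) and each PMM library (orange) of the 18 deep DMRs lower in PMM on the deposited scale, from the largest loss (top) to the smallest, on a log scale with a dotted line at 60. In the 2 regions with the largest losses one PMM library stands apart from the other PMM libraries, and in the lowest rows the muscles are close without overlapping; 10 of the 18 turn to higher after subtraction of the density trend.

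The largest losses were intergenic. A region at chr8:43669618-43669832 had 248, 278 and 296 in LDM and 153, 68.6 and 72.5 in PMM (log2 difference -1.57 ± 0.26), and a region at chr9:40853357-40853442 had 383, 417 and 475 in LDM and 238, 109.6 and 111 in PMM (-1.56 ± 0.25). In both, PMM library 1 lay between the other PMM libraries and the LDM libraries, and without it the log2 differences were -1.94 and -1.93. Another region of chromosome 8, at chr8:43605760-43605876 and thus close to the first, had 139.6, 139.8 and 178 in LDM and 65.6, 69.3 and 55.3 in PMM (-1.25 ± 0.12), with no PMM library apart. At chr10:17596778-17596888 all libraries were deep, with 324, 290 and 318 in LDM and 229, 194 and 172 in PMM (-0.65 ± 0.10).

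Of the lower regions, 6 lay in genes. The last exon of ZIC4, a zinc finger transcription factor of early patterning, had 133, 115 and 120.4 in LDM and 50.3, 59.5 and 78.6 in PMM (-0.98 ± 0.15). An intron of ZNF333, a zinc finger gene, had 139, 104 and 124 in LDM and 71.1, 48.7 and 68.7 in PMM, and an intron of FGFR1OP, a centrosomal protein, had 132, 116 and 134 in LDM and 72.4, 61.6 and 72.5 in PMM. These 3 lost nearly 1 unit on the log2 scale, although ZNF333 and FGFR1OP turned to 0.06 and 0.11 after subtraction of the density trend. PARK2 (parkin, a ubiquitin ligase that marks damaged mitochondria), ATXN7L1 and PRIM2 (a subunit of DNA primase) had intronic regions with smaller differences of -0.61, -0.42 and -0.23, of which that of ATXN7L1 turned to 0.32 and that of PRIM2 to 0.017 after subtraction of the density trend. The PRIM2 difference lost its call without PMM library 2, at -0.22.

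CpG density, which the rule did not use, was slightly lower at the deep DMRs, with a median of 4.88 CpGs per 100 bp against 5.38 over the list. Their median length was 148 bp (range 23 to 1396) against 134 bp, and they held a median of 7 CpGs (5 to 44). These comparisons mixed the directions, and among DMRs higher in PMM the order was reversed. There the deep DMRs were denser and shorter than the listed ones, with 4.86 against 4 CpGs per 100 bp and 149 against 165 bp. Among DMRs lower in PMM the 18 deep ones had 7.32 against 7.63 CpGs per 100 bp and 76 against 99 bp. Over the list, density went with direction. When all listed DMRs were divided into 4 classes of rising density, 93.9%, 76.1%, 37.1% and 16.7% of the classes were higher in PMM. Among the deep DMRs the same classes held 262, 495, 350 and 157 regions, of which 100%, 99.6%, 97.7% and 94.9% were higher. The direction of the deep DMRs therefore changed little with density on the deposited scale, where that of the list turned over.

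**Figure D5:**
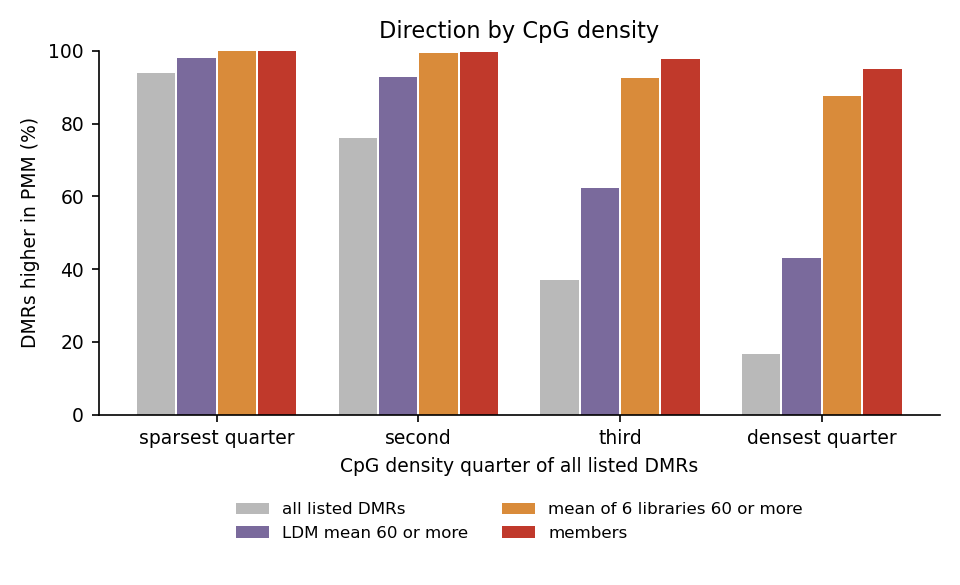
Share of DMRs higher in PMM (%) on the deposited scale in 4 classes of CpG density, from sparsest to densest, for all listed DMRs (grey), DMRs with an LDM mean of 60 or more (purple), DMRs with a mean over the 6 libraries of 60 or more (orange) and the deep DMRs (red). From the sparsest to the densest class the share goes from 93.9% to 16.7% over the list and from 100% to 94.9% at the deep DMRs; quantile normalization leaves 96 of the 157 densest deep DMRs higher.

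The rule itself took part in this pattern, since it dropped lower regions that did not reach 60 in PMM. In the densest class, 149 of the 346 DMRs with an LDM mean of 60 or more were higher in PMM (43.1%), and of the 265 with a mean over the 6 libraries of 60 or more, 232 were higher (87.5%). Both shares were above the 16.7% of the class as a whole. Of the 157 deep DMRs in this class, 96 were higher after quantile normalization (15 called higher, 17 called lower). Of all 3908 listed DMRs of the class, 442 were then called higher and 2903 lower. After subtraction of the density trend all 157 were higher, against 1139 of the 3908. In the sparsest class that subtraction left 243 of the 262 deep DMRs lower, against 2279 of the 3910 listed ones. It moved the median log2 difference of the deep DMRs from 0.60 to -0.28 in the sparsest class and from 0.54 to 1.44 in the densest. The medians of all listed DMRs moved the same way, from 0.87 to -0.07 and from -1.23 to -0.30. The counts after this subtraction thus follow the density of the regions, and nothing more is read from them.

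CpG islands are dense CpG stretches that are usually unmethylated. Of the 226 listed DMRs in islands, 12.8% were higher in PMM, whereas all 12 deep DMRs in islands were higher (11 of 12 after quantile normalization). Of the 30 island DMRs with an LDM mean of 60 or more, 12 were higher and 18 lower, and none of those 18 reached 60 in PMM. The deepest island region lay downstream of SNORD112, named for a small nucleolar RNA that in human belongs to the imprinted DLK1-DIO3 cluster, at chr7:132140740-132140926. It had 145, 143 and 134 in LDM and 219, 220.4 and 211 in PMM (0.62 ± 0.06). Island regions inside genes lay in introns of GMDS, which starts the synthesis of GDP-fucose (130.1, 136 and 125 in LDM, 182, 184 and 199.5 in PMM), of IAH1, an esterase (131, 125 and 123 in LDM, 187, 197 and 177 in PMM), and of PAK1IP1, an inhibitor of the kinase PAK1 (66.1, 59.2 and 73.9 in LDM, 93.9, 113 and 104 in PMM). An island in the last exon of ARHGAP21, a GTPase-activating protein, had a log2 difference of 0.68.

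By place in the gene, exons were held most often. Of the 696 exonic DMRs in the list, 106 were deep (15.2%), against 8.35% of the 4848 intronic, 7.48% of the 9292 intergenic, 9.09% of the 319 downstream and 6.07% of the 478 promoter DMRs. Exons thus made up 8.39% of the deep DMRs and 4.45% of the list. Exonic DMRs of the list were already higher in PMM more often than others (69.8%), and 105 of the 106 deep exonic regions were higher (87 of 106 after quantile normalization). First exons gave 7 deep DMRs of 32, internal exons 72 of 462 and last exons 28 of 214.

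Promoters held 29 deep DMRs, all higher in PMM on the deposited scale, with 22 higher and 7 lower after quantile normalization and 21 higher and 8 lower after subtraction of the density trend. By promoter class, 9 were CpG-rich (HCP), 19 intermediate (ICP) and 1 CpG-poor (LCP). The deepest protein-coding promoter was that of AFAP1, an actin filament-associated adaptor, with 131, 124 and 124 in LDM and 178, 192 and 189 in PMM (0.56 ± 0.06). In the promoter of SYT9, a calcium sensor of vesicle release, LDM depths of 107, 108 and 92.0 stood against PMM depths of 186, 143 and 173 (0.70 ± 0.11). GRIN2D, an NMDA receptor subunit gene, carried a pair of adjoining promoter regions with log2 differences of 0.69 and 0.77, and its deeper region had 77.0, 59.7 and 67.7 in LDM and 117, 119 and 113 in PMM.

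Promoters of genes known from other cell types and from DNA replication were also among them. ITGB2, the leukocyte integrin beta chain, had 62.1, 61.5 and 60.4 in LDM and 85.9, 82.6 and 93.5 in PMM (0.50 ± 0.09, and -0.01 after quantile normalization). AXL, a receptor tyrosine kinase, had 58.1, 67.9 and 64.3 in LDM and 96.5, 104 and 87.2 in PMM, in the sparsest promoter region of the set with 1.82 CpGs per 100 bp (0.59 ± 0.10, and -0.61 after subtraction of the density trend). POLA1, the catalytic subunit of DNA polymerase alpha, had the only CpG-poor promoter, with 68.7, 62.9 and 69.6 in LDM and 96.9, 112 and 112 in PMM (0.66 ± 0.09). In these promoters each PMM library was above each LDM library, as at every deep DMR higher in PMM. The other promoter regions belonged to TDRD1, FAM122B, EFCAB6, MPP1, TRAPPC9, LEUTX and DLL3 (a shared region), RPS6KC1, PARN, OR2D3, SERTAD2, NRIP3, ATP9A and transcripts with no symbol, with log2 differences of 0.48 (TDRD1) to 0.84 (a transcript beside ERI3).

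Some genes held several deep DMRs. A symbol was given for 533 deep DMRs, in 469 genes, of which 415 had 1 deep DMR, 40 had 2 and 14 had 3 or more. TSHZ2, a teashirt-family zinc finger gene, had the most, with 5 deep DMRs of 9 listed, all in introns. Their LDM means ran from 62.5 to 136.6 and their PMM means from 107.0 to 174.2, with log2 differences of 0.35 to 0.85, of which 1 turned negative after quantile normalization and 2 after subtraction of the density trend. GMDS had 4 of 6 listed (0.41 to 0.57, with 2 and 1 turning) and TRAPPC9, a subunit of a vesicle tethering complex, 4 of 15 (0.52 to 0.68, with 0 and 1 turning).

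PARK2 was the only gene of the 14 with deep DMRs in both directions. A region in its first intron at chr1:7291700-7291771 had 93.2, 90.0 and 100.3 in LDM and 60.3, 70.0 and 55.1 in PMM, while a region in its last intron at chr1:7769928-7769966 had 131, 131 and 119.9 in LDM and 172, 160.3 and 178 in PMM (0.42 ± 0.07). Its other 2, at 7773083 and 8248069, were higher by 0.59 and 0.73. PARK2 had 20 listed DMRs in all, 16 higher and 4 lower. After quantile normalization the region at 7769928 also turned negative (-0.08). The remaining genes with 3 deep DMRs were higher at all of them on the deposited scale. Both scalings kept this for NUP214 (a nuclear pore protein, 0.56 to 0.62) and PDLIM5 (a PDZ-LIM protein of the Z-disc, 0.66 to 0.74), whereas at least 1 region changed sign under one of them in AFAP1, DIAPH1 (a formin), EFCAB6, FNBP1 (a formin-binding protein), HERC3, KAL1 (anosmin-1), MYO1D and SDK1 (a cell adhesion protein).

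Some genes of the contractile and calcium systems, which differ between fiber types, held deep DMRs. Lists of genes were written from textbook knowledge, and only promoter, exon and intron DMRs were counted for them. The 8.09% of all listed DMRs, given beside them, also counts intergenic and downstream DMRs, of which 7.48% and 9.09% were deep. Of promoter, exonic and intronic DMRs, 6.07%, 15.2% and 8.35% were deep. Small distances of a list from 8.09% are therefore not read. In the sarcomere and costamere list, 3 genes held 5 deep DMRs, all higher under each scaling, out of 37 listed DMRs of the list (13.5%, against 8.09% of all listed DMRs). MYBPC2, the fast-fiber myosin-binding protein C, had an intronic region at chr6:51149293-51149394 with 88.8, 82.6 and 85.4 in LDM and 134, 143 and 129 in PMM (0.65 ± 0.07). ANK3, an ankyrin that links membrane proteins to the cytoskeleton, had an exonic region with 156, 144 and 130.4 in LDM and 215, 231 and 194 in PMM (0.57 ± 0.09). Of the calcium list, 5 of 48 listed DMRs were deep (10.4%) and higher, with 1 turning after each scaling. CASQ2, the calcium buffer calsequestrin of the sarcoplasmic reticulum of slow and cardiac muscle, had an intronic region with 64.5, 53.9 and 74.4 in LDM and 106, 119 and 110 in PMM (0.80 ± 0.12). CAMK2D, a calcium-dependent kinase, had an exonic region with 118, 97.5 and 101 in LDM and 174, 186 and 178 in PMM (0.77 ± 0.08), and CACNB2, a calcium channel subunit, had 0.76 ± 0.12. The calcium-activated transcription factor NFATC2, with 0.52 ± 0.07, was the one that turned.

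Each of the lists for energy metabolism gave 1 deep DMR. That of the glycolysis list (1 of 20, 5% against 8.09% of all listed DMRs) lay in an exon of PFKFB2, which sets the level of the glycolytic activator fructose 2,6-bisphosphate, with 115, 98 and 104 in LDM and 150.3, 157 and 173 in PMM (0.59 ± 0.08). Mitochondrial genes gave 1 of 31 (3.23%), in an intron of OGDH that was also annotated to ZMIZ2 (0.41 ± 0.08, and -0.11 after quantile normalization). In insulin, AMPK and mTOR signaling, where 8.89% of the listed DMRs were deep, those of GRB10, PIK3R3 and RPTOR were higher by 0.44 to 0.52 on the deposited scale and all negative after quantile normalization. The regulators of myogenesis and fiber type gave 2 of 26 (7.69%), both in MBNL2, a splicing regulator, whose deeper region had 78.6, 76.5 and 59.2 in LDM and 116, 120.5 and 143 in PMM (0.82 ± 0.13) and was higher under each scaling.

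The list of fibroblast and matrix genes held 7 deep DMRs of 43 listed (16.3%), in COL19A1, COL4A2, ITGA2, ITGA8, LAMC3, NID1 and P4HA2. All were higher, 2 turned after quantile normalization and 1 after subtraction of the density trend. The 7 deep regions had a median log2 difference of 0.59, near the 0.58 of all deep DMRs. All 43 had a median of -0.95, but the depth rule dropped lower regions that did not reach 60 in PMM. P4HA2, a subunit of the enzyme that hydroxylates collagen prolines, had an exonic region with 77.4, 81.4 and 72.0 in LDM and 124, 122 and 123 in PMM (0.67 ± 0.08). ITGA8, an integrin chain that binds matrix proteins, had an exonic region with 105, 119 and 104 in LDM and 151, 158 and 160.5 in PMM (0.52 ± 0.08). Enzymes of DNA and histone methylation held 7 of 47 (14.9%), in KDM1B, KDM2B, KMT2B, SETD3, SMYD2 and TET3, all higher, with 3 turning after quantile normalization and 1 after subtraction of the density trend. SETD3, the methyltransferase of actin histidine, had 104, 97.0 and 81.5 in LDM and 138, 176 and 165 in PMM (0.76 ± 0.12), and TET3, which oxidizes methylcytosine, had 85.4, 81.0 and 71.6 in LDM and 112, 109.5 and 116 in PMM (0.50 ± 0.09, and -0.02 after quantile normalization).

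The GTPase regulators, which switch small GTPases on and off, held 20 deep DMRs in 18 genes of 199 listed DMRs (10.1%), all higher, of which 6 turned after quantile normalization and 3 after subtraction of the density trend. Their deepest, in an intron of DENND5A, an exchange factor for Rab GTPases, had 144, 143 and 137 in LDM and 189, 198 and 203 in PMM (0.47 ± 0.06). Wnt and MAP kinase signaling held 7 of 53 (13.2%), all higher, of which 1 turned after quantile normalization and 3 after subtraction of the density trend. An exon of CTNNB1, the gene of beta-catenin, had 173, 162 and 143 in LDM and 218, 236 and 228 in PMM (0.52 ± 0.08), and the last exon of DUSP4, a phosphatase of MAP kinases, had 72.7, 85.7 and 88.7 in LDM and 132, 132 and 156 in PMM (0.76 ± 0.10). Of the lists for other cell types of muscle, beside that of fibroblast and matrix, vessels held 1 of 33 (3.03%, ETS1), adipocytes and lipid 2 of 39 (5.13%, DGKD and DGKH), leukocytes 2 of 20 (10%, FOXP3 and ITGB2) and nerve 3 of 40 (7.5%, NTRK3 and PLXNC1), around the 8.09% of all listed DMRs. Of these, 5 turned after quantile normalization, and the part of such cells in the depths was not tested. The homeobox and patterning list gave 1 of 23 (4.35%), the lower region of ZIC4.

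The deep DMRs lay near chromosome ends more often than the list did. Of the 1264, 455 (36.0%) were within the outermost 7 Mb of a chromosome, against 22.6% of all listed DMRs, with ends taken at the first base and at the last listed DMR. Of the listed DMRs in the outermost 7 Mb, 12.9% were deep, and of those further inside 6.69%. The share at the ends rose with depth, from 32.4% for a mean depth of 60 to 80 to 53.5% for 150 or more. Deep DMRs at the ends were somewhat denser in CpGs (5.20 per 100 bp) than those inside (4.79). Of the deep DMRs at the ends, 98.9% were higher in PMM, near the 98.6% of all deep DMRs. Of the listed DMRs at the ends, 57.7% were higher, near the 56% of the whole list.

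By chromosome, chromosome 11 had the highest share of its listed DMRs among the deep ones (95 of 713, 13.3%) and chromosome 13 the lowest (32 of 738, 4.34%). On chromosomes 1, 2 and 13 the median log2 difference of all listed DMRs was negative (-0.75, -0.50 and -0.68). That of the deep DMRs there was 0.62, 0.55 and 0.56, near the 0.58 of the deep DMRs of all chromosomes. On chromosome 18, 65.5% of the deep DMRs were within the outermost 7 Mb, against 47.6% of all its listed DMRs. The 18 lower regions were spread over 10 chromosomes, with 4 on chromosome 8.

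Within 10 kb of another deep DMR lay 75 deep DMRs (5.93%), in 37 groups. Of all listed DMRs, 24.9% had another listed DMR within 10 kb, a share that is higher for a denser set of regions. The members of 36 groups had the same direction, which says little where 98.6% of the set were higher. The exception, named after its values had been seen, was an intergenic pair on chromosome 10 in which the region at chr10:65491288-65491520 had 71.1, 64.4 and 68.6 in LDM and 104, 105 and 92.6 in PMM, and the region at chr10:65499081-65499204 had 102, 92.9 and 87.0 in LDM and 64.2, 67.3 and 61.1 in PMM. Their differences were nearly equal in size and opposite in sign, 0.56 ± 0.09 and -0.54 ± 0.09, although the first turned after subtraction of the density trend. A group of 3 lay at the start of AFAP1 on chromosome 8, where intergenic regions at chr8:4030551-4030839 (104, 94.4 and 93.8 in LDM, 138, 148 and 169 in PMM) and chr8:4031184-4031278 (106, 122 and 104 in LDM, 149.7, 176 and 175 in PMM) were followed by the promoter region at chr8:4037003-4037239. The log2 differences of the 3 were 0.63, 0.59 and 0.56, all higher under each scaling.

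Other listed DMRs near the deep ones shared their direction only in part. Of the 415 other DMRs within 10 kb of a deep DMR, 63.4% were higher in PMM, against 51.9% of the remaining 13954. For DMRs at or under the median CpG density the shares were 86.8% and 83.3%, and for denser DMRs 34.8% and 21.7%. Within genes that held a deep DMR, 61.4% of the 736 other DMRs were higher, against 51.6% of 4719 in other named genes. A dense DMR beside a deep one was thus still more often lower than higher in PMM.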

How the data were processed

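MeDIP-seq had been carried out on 3 LDM and 3 PMM libraries. Per the methods of the study, the authors aligned paired-end reads to Sscrofa10.2 with SOAP2, kept a read mapping to several places once, dropped CpGs of low depth and joined neighbouring CpGs that differed between the muscles into DMRs of at least 5 CpGs. The deposited values are a coverage signal, the mean read depth over the CpGs of a DMR in each library, scaled per library by the authors. Each value times its number of CpGs was a whole multiple of 1 step per library (tolerance 0.1 of a step, values under 1000 steps), and the step was 1.00 to 1.08 in LDM and 1.04 to 1.21 in PMM. Total reads per library were not used here, and a read count per DMR was not given, so that no counting interval was computed. The table also held the authors' muscle means, p-values and FDR for this contrast, which were not used. Of its 18176 rows, 37 carried a gene symbol turned into a date, and these symbols were left out. Each DMR was entered once, as promoter, gene body, downstream or intergenic, by the first that applied.

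Groups were taken from the sample titles, because the source name read longissimus dorsi for all 6 samples. limma 3.58.1 in R 4.3.3 was fitted to log2(depth + 1) of all 15633 DMRs with muscle as the term and a variance trend, and p-values were adjusted by Benjamini and Hochberg over all of them at 0.05. The fit was tested on simulated data. Tables were made with Python 3.11.15 and pandas 2.3.3. The regions and gene lists were chosen with earlier results of these data known. Values were named by rule: the 12 deepest regions, the 10 deepest with a gene, the 8 largest gains with a gene and all lower regions, all promoter and island regions with a symbol, genes with 3 or more deep DMRs, up to 4 genes per gene list and the 3 largest groups within 10 kb. Some regions that met this rule are not reported here. Alternatives were the pseudocount, a depth filter, the variance model, quantile normalization, a CpG density trend, a replicate block, each library left out and other depth minimums and distances. No genome of the build was used here, so no sequence is shown.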

Additional observations from a re-analysis of the deposited data

How the results depend on the processing

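The direction counts of the deep DMRs (1246 higher, 18 lower) and their median log2 difference of 0.58 stayed within 1.5 times and within the spread of replicates under pseudocounts of 0.25 and 4, a filter of depth 10 in at least 3 libraries, an unmoderated model and a model with no variance trend (1244 and 16). Leaving out each library in turn gave 1244 to 1246 higher, 16 to 18 lower and a median of 0.56 to 0.60. Choosing the regions without one library at a time left the number and shares within 1.5 times and within their intervals. Quantile normalization gave 151 higher, 43 lower and a median of 0.062, and subtraction of the density trend 649, 144 and 0.31. By its construction the first removes a difference in spread between libraries, and the second removes the trend of the list with CpG density. The second moved the median of the deep DMRs from 0.60 to -0.28 in the sparsest class and from 0.54 to 1.44 in the densest. Why the difference between the muscles goes with density was not tested. With both means at 50 or more the median density was 4.76 and the median log2 difference 0.61. At 80 or more there were 534 regions with a density of 5.31, 39.7% in the outermost 7 Mb and a log2 difference of 0.53. At 100 or more there were 212 with 5.77, 47.2% and 0.51. With a mean over the 6 libraries of 60 or more, chosen after seeing the data, there were 2330 regions, 96.5% higher, with a density of 4.71, 32.2% in the outermost 7 Mb and a log2 difference of 0.64, and at 100 or more 554 with 5.22, 40.1% and 0.55. The share at chromosome ends was 27.1% within 5 Mb and 44.0% within 10 Mb, and 20 regions had a neighbour within 1 kb and 385 within 100 kb. The depths rest on 3 libraries per muscle, and total reads were not used here.

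Whether equal replicate numbers mark the same pig is not known. The correlations of their deviations over all listed DMRs were 0.04, 0.24 and 0.02, and the numbers were not treated as pairs. A fit with the replicate number as a block called the same counts, 1246 higher and 18 lower with a median log2 difference of 0.58.

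Of the 151 regions named by rule, PRIM2 and an intergenic region at chromosome 7, 121917940, lost their call with no variance trend (-0.23 and -0.20) and without PMM library 2 (-0.22 and -0.19), and the latter also without LDM library 1 (-0.18) or PMM library 1 (-0.20). Quantile normalization took the call from 71 with no change of direction and subtraction of the density trend from 28. Quantile normalization turned 35, with log2 differences of -0.059 for COL4A2, -0.14 for AFF2, -0.076 for PAPSS2, -0.071 for GMDS at 1184530, -0.14 for TSHZ2 at 61070936, -0.20 for KMT2B, -0.057 for GRB10, -0.044 for DIAPH1 at 149425811, -0.080 for PARK2 at 7769928, -0.11 for OGDH, -0.029 for PLXNC1, -0.028 for the intergenic region at chromosome 10, 72923231, -0.0049 for NFATC2, -0.082 for SDK1 at 3673395, -0.022 for ARHGAP26, -0.031 for TDRD1, -0.0067 for EFCAB6 at 2581875, -0.071 for EFCAB6 at 2598776, -0.17 for RNA5SP501, -0.027 for KAL1 at 5422209, -0.025 for TET3, -0.16 for MYO1D at 44050391, -0.067 for MAP4K4, -0.010 for PIK3R3, -0.017 for HERC3 at 139851738, -0.070 for GMDS at 1114620, -0.13 for SDK1 at 3776353, -0.034 for FOXP3, -0.094 for RPTOR, -0.034 for KAL1 at 5533798, -0.15 for FNBP1 at 304030368, -0.020 for SERTAD2, -0.0053 for NRIP3, -0.18 for DGKD and -0.0072 for ITGB2. Subtraction of the density trend turned 34, with log2 differences of -0.045 for the intergenic region at chromosome 6, 910570, -0.42 for the intergenic region at chromosome 15, 155206675, -0.69 for the intergenic region at chromosome 3, 142529620, -0.25 for TSHZ2 at 61070936, -0.17 for GMDS at 1243291, -0.0024 for MAP3K4, -0.37 for NFATC2, -0.14 for the promoter beside SEC23A, -0.32 for TSHZ2 at 60912798, -0.12 for TRAPPC9 at 2632619, -0.36 for RNA5SP501, 0.017 for PRIM2, -0.21 for FNBP1 at 303960051, 0.17 for the intergenic region at chromosome 7, 121917940, 0.21 for the intergenic region at chromosome 6, 56896996, 0.37 for the intergenic region at chromosome 14, 2751613, 0.11 for FGFR1OP, -0.41 for ITGA2, 0.13 for the intergenic region at chromosome 8, 146863405, -0.29 for PARN, 0.055 for ZNF333, -0.39 for DIAPH1 at 149445116, -0.13 for AFAP1 at 4070867, 0.43 for the intergenic region at chromosome 5, 111012689, -0.17 for HERC3 at 139851738, 0.32 for ATXN7L1, -0.21 for FOXP3, -0.075 for HERC3 at 139853891, -0.10 for KAL1 at 5533798, -0.20 for NTRK3, -0.28 for GRIN2D at 49609739, -0.61 for AXL, -0.17 for SERTAD2 and 0.47 for the intergenic region at chromosome 7, 35774983.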
